A study of Mus musculus with 2 samples.

Results

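The clustered zinc finger Zfp genes are protein-coding genes of the GENCODE mouse annotation whose symbol is Zfp followed by digits, with an end letter allowed, and whose start lies within 100 kb of the start of another such gene. The rule found 216 genes in 54 clusters on 14 chromosomes, out of 391 Zfp genes and 21938 coding genes. The other 175 Zfp genes, called lone Zfp genes here, have no such neighbour. The rule uses name and position and no value of the DNase-seq data. In DNase-seq, nuclei are treated with DNase I and the ends it leaves are sequenced, so that open chromatin stands out as peaks of cuts and proteins bound within it as short protected footprints. The tissue was whole cerebellum. The mice were B6CASTF1/J males, first-generation crosses of B6 with CAST, 8 to 10 months old and untreated as far as the labels say. There were 2 libraries, given as biological replicates 1 and 2, and they form a single group. Each comes from its own pool, of 2 biosamples. Both carry the same donor code and the labels do not say whether the pools share animals, so the spread between them may be partly technical.

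Zfp genes mostly encode C2H2 zinc finger proteins, in which a row of small zinc-holding fingers reads the bases of DNA. Many of them also carry a KRAB box, which binds the corepressor TRIM28 (KAP1) and through it the histone methyltransferase SETDB1, and so silences the bound site, often a transposable element. The family grew in mammals by tandem duplication, and recent copies stand side by side with the same exon layout and near-identical fingers. In these data 159 of the 216 clustered genes (73.6%) carried a KRAB pattern near the protein's amino end, against 52 of 175 lone genes (29.7%). A median of 11 fingers was found in clustered proteins and of 8 in lone ones. A missing match says only that the pattern searched was not found.

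The starts of clustered Zfp genes were mostly open in the cerebellum. A start peak, here a peak of the authors' stricter list that overlaps the 1 kb either side of any annotated transcript start of the gene, was present at 188 of 216 clustered genes (87.0%, 95% Wilson interval 81.9 to 90.9) in replicate 1 and at 188 (87.0%) in replicate 2. Among lone Zfp genes it was present at 144 of 175 (82.3%, 76.0 to 87.2) and 142 (81.1%, 74.7 to 86.2). Among all coding genes the shares were 58.4% in replicate 1 and 57.2% in replicate 2. In bulk tissue, a site open in fewer cells and a site less open in each cell cannot be told apart. The replicates named nearly the same clustered genes: 187 had a start peak in both, 27 in neither, and 2 in a single replicate. The clustered share exceeded the lone share by 4.75 and 5.89 percentage points in replicates 1 and 2, a mean of 5.32 ± 0.81 (SD, n = 2). That difference is larger than the spread between the libraries, but the Wilson intervals of clustered and lone genes overlap, and genes of one cluster share sequence and neighbourhood and are not replicates, so no test was made. It also rests on the neighbour distance: with 200 kb in place of 100 kb the clustered share lay 0.44 points below the lone share, since 29 genes with a neighbour between those distances joined the clusters and 19 of them had a start peak in both replicates.

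With the authors' longer peak list, 193 clustered genes (89.4%) had a start peak in each replicate, against 149 lone genes (85.1%) in each and 63.4% and 62.2% of all coding genes. Footprints told the same of the starts. At least 1 footprint lay within 1 kb of a start at 191 clustered genes (88.4%) in replicate 1 and at 189 (87.5%) in replicate 2. The lone genes gave 146 (83.4%) and 143 (81.7%), and all coding genes 61.7% and 59.6%. Distal peaks ran the other way. A distal peak, centred more than 1 kb from every annotated transcript start and within 50 kb of the gene start, was found for 101 clustered genes (46.8%, 40.2 to 53.4) in replicate 1 and 110 (50.9%, 44.3 to 57.5) in replicate 2. For lone genes the counts were 104 (59.4%, 52.0 to 66.4) and 115 (65.7%, 58.4 to 72.3), and for all coding genes the shares were 63.6% and 69.2%.

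**Figure D1:**
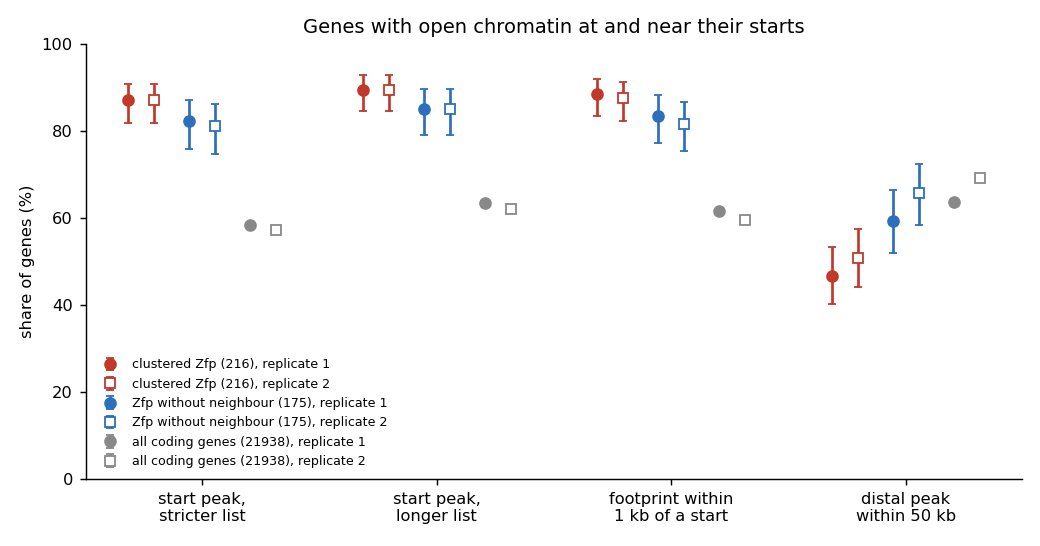
Share of genes (%) with a start peak in either list, a footprint within 1 kb of a start, or a distal peak within 50 kb, for clustered Zfp genes, lone Zfp genes and all coding genes. Filled circles are replicate 1, open squares replicate 2, and bars 95% Wilson intervals, which cover counting error only. The clustered genes lie highest for the 3 measures at the start and lowest for the distal peaks, at 46.8% and 50.9%.

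Clustered genes differed in openness along with the sequence at their starts. The CpG ratio compares the CpG dinucleotides within 500 bp of the gene start with the number that its C and G content would give, and a ratio of 0.6 or more is usual for CpG islands. Of the 94 clustered genes at or above 0.6, 93 had a start peak in both replicates, and the exception, Zfp819, had it in replicate 1. Lone genes in that range had it at 99 of 106 (93.4%), and all coding genes at 88.2%. Below a ratio of 0.4 a start peak in both replicates was found at 36 of 58 clustered genes (62.1%, 49.2 to 73.4), at 17 of 38 lone genes (44.7%, 30.1 to 60.3) and at 17.1% of all coding genes. Clustered genes with CpG-poor starts were thus open far more often than coding genes with such starts in general. Among starts at least 90% of whose 32-base words occur once in the genome, that group shrank to 10 of 11 clustered genes, 10 of 19 lone genes and 21.6% of all coding genes. Both sequence measures were taken at the gene record's start, while a start peak could lie at any annotated start. The sequence and the peak of a gene may thus belong to different starts. With the gene record's start alone 178 clustered genes were open in both replicates, against 187 over all starts. Clustered genes as a whole had a median CpG ratio of 0.54, against 0.66 in lone and 0.55 in all coding genes.

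The open clustered starts had lower signals than open starts in general. The deposited signal of the strongest start peak, a coverage measure of unstated scale, had a median of 3.50 in replicate 1 and 2.72 in replicate 2 over the clustered genes with a peak. Over lone genes the medians were 4.67 and 3.44, and over all coding genes 4.83 and 3.38. Ranked among coding genes with a start peak in both replicates, the 187 clustered genes had a median percentile of 37.2 and the 141 lone genes one of 47.6. Of the clustered genes 4 ranked above the 90th percentile and 21 below the 10th. Footprints numbered a mean of 7.51 and 7.31 within 1 kb of the starts of a clustered gene in replicates 1 and 2, against 11.2 and 9.73 for a lone gene and 7.49 and 6.93 for a coding gene. Where there was a start peak the means were 8.60 and 8.38 for clustered, 13.5 and 11.9 for lone and 12.67 and 11.99 for all coding genes. Clustered genes had a median of 3 annotated transcript starts and lone genes one of 4, so the windows searched were not of equal length. With the gene record's start alone the clustered minus lone difference in footprints per gene was -1.57, against -3.04 over all starts. Among genes with a KRAB pattern alone it turned to 0.63 more for clustered genes.

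**Figure D2:**
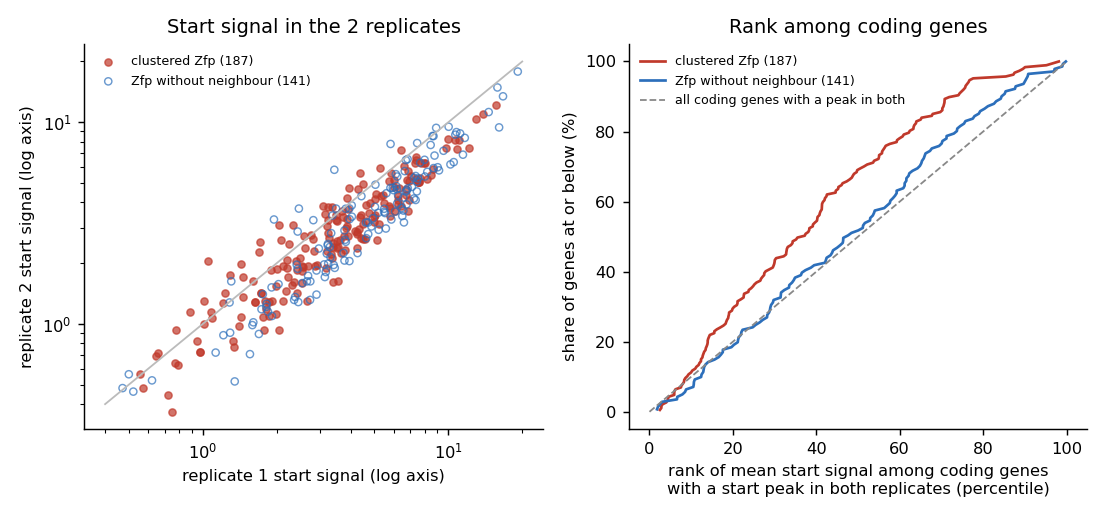
Left, deposited signal of the strongest start peak in replicate 2 against replicate 1 on log axes, 1 point a gene with a start peak in both, with the line of equal signal. Right, cumulative share of genes by the rank of their mean start signal among coding genes with a start peak in both. Most points lie below the line, and the clustered curve runs above the lone one, with median percentiles of 37.2 and 47.6.

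The strongest clustered start was that of Zfp78, with a signal of 15.6 in replicate 1 and 12.2 in replicate 2. Zfp846 had 13.9 and 11.0, and Zfp446 had 12.9 and 10.4. These 3 kept their order in both libraries, and they ranked at percentiles 98.1, 96.7 and 95.2 of coding starts. Zfp809, which in mouse embryonic stem cells binds the primer binding site of murine leukaemia virus and silences related endogenous retroviruses, came next with 12.1 and 7.45. Zfp961 had 11.1 and 8.17, Zfp672 had 10.6 and 8.18, Zfp868 had 10.8 and 7.40, Zfp444 had 9.96 and 8.21, and Zfp865 had 9.76 and 7.48. Zfp24, a zinc finger gene that oligodendrocytes need to make myelin, closed the first 10 with 8.66 and 5.89. All 10 were lower in replicate 2, as was usual: the median log2 ratio of replicate 2 to replicate 1 was -0.38 over clustered, -0.53 over lone and -0.55 over all coding genes. The 5 strongest lone starts were those of Zfp143 (19.2 and 17.8), Zfp654, Zfp687, Zfp277 and Zfp706, and Zfp143 exceeded every clustered gene. Most footprints lay at Zfp444, with 28 and 28, and at Zfp672, with 26 and 32. Zfp78 had 20 and 27, Zfp524 had 21 and 23, and Zfp768 had 24 and 18. In this order the 5 genes have 12, 7, 6, 3 and 2 annotated transcript starts, so the lengths searched differ. By gene record starts, another coding gene starts within 1 kb at 21 clustered genes (9.72%) and 20 lone genes (11.4%). There a peak cannot be given to one of the genes. This holds for Zfp672 beside Sh3bp5l, Zfp865 beside Ccdc106, Zfp524 beside Fiz1, and Zfp566 beside Gm26920. Peaks shared through other annotated starts are not in these counts. Zfp935 and Zfp934, without such a partner, had the same signals of 1.72 and 1.43.

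Of a list of genes with a published role 12 were clustered, and 9 of these had a start peak in both replicates, against 86.6% of all clustered genes and 55.9% of all coding genes. Zfp568, which in the mouse embryo holds down a placental transcript of Igf2, had a start signal of 5.20 and 3.12 with 10 and 8 footprints. Zfp445, which helps to keep parental methylation marks at imprinted genes, had 2.54 and 1.60 with 3 and 4 footprints. The lone gene Zfp57, the other main factor of imprint maintenance, had a start peak of 0.47 and 0.48. Zfp708, which binds the RMER19B repeats, had 1.29 and 1.74. Zfp110 encodes NRIF, a partner of the neurotrophin receptor p75, and had 3.33 and 2.21. Zfp128 had 7.39 and 6.46, Zfp30 had 3.89 and 2.71, and Zfp429 had 0.78 and 0.93. Zfp819, known from male germ cells, had a peak of 0.51 in replicate 1 and none in replicate 2. Zfp97 and Zfp992 had no start peak in either list of either replicate. The start windows of Zfp809 and Zfp568 and of Zfp78, the strongest clustered start, follow, from 250 bases before the gene start to 50 bases into the gene, in GRCm38 (mm10), 5′ to 3′ on the gene's strand. They were chosen after their footprints were seen, because they held more bases in footprints of both replicates than the windows of Zfp846 and Zfp445. Capitals mark bases inside a footprint in both replicates.
Zfp809, chr9:22225464-22225763, strand +: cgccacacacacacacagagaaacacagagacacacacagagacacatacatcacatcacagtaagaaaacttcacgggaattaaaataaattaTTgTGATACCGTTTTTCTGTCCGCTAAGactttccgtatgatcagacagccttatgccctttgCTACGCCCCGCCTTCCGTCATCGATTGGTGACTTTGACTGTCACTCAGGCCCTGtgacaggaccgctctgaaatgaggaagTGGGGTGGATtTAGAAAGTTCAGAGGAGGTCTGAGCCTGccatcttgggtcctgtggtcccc
Zfp568, chr7:29983705-29984004, strand +: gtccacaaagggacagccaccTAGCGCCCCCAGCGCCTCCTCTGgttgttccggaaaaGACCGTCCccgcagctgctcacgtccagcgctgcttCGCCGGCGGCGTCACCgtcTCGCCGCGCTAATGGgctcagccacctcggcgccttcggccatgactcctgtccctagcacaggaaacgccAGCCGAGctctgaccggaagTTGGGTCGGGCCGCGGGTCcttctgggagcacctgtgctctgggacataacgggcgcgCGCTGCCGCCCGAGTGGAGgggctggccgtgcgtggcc
Zfp78, chr7:6363030-6363329, strand +: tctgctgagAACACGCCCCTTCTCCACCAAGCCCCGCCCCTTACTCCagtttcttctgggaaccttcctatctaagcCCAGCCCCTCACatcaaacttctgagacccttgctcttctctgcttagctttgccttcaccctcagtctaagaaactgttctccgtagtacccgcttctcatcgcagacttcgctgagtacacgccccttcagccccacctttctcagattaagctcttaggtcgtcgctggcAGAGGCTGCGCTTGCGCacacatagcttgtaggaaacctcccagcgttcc

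In the Zfp809 window 131 of 300 bases lay in footprints in each replicate and 119 in both. In the Zfp568 window the counts were 144 and 127, with 107 in both, and in the Zfp78 window 94 and 98, with 67 in both. The windows of Zfp846 and Zfp445, not shown, had 60 and 72, with 54 in both, and 44 and 33, with 18 in both. Among these windows footprints were placed most alike in the libraries at Zfp809 and least at Zfp445.

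Some clusters were open throughout, some closed throughout, and others mixed. In 34 clusters, with 135 genes, every gene had a start peak in both replicates. In 5 clusters, with 12 genes, none had one in either, and 15 clusters were mixed or held a gene open in a single replicate. In those 5 clusters a mean of 0 to 34.5% of the words near the gene starts occurs once in the genome. There, no peak cannot be told apart from no countable read. Of the 27 closed genes, 15 stood in 13 clusters that also held genes open in both replicates. In the 8 clusters of 6 or more genes 83 of 86 genes (96.5%, 90.2 to 98.8) were open in both, against 66 of 78 (84.6%, 75.01 to 90.97) in clusters of 3 to 5 and 38 of 52 (73.1%, 59.7 to 83.2) in pairs. The clusters with no open gene are all pairs but for a chromosome 4 cluster of 4 genes. The part of repeated start sequence in these shares by cluster size was not tested. The cluster of 15 genes on chromosome 7, with Zfp568, Zfp30, Zfp260 and Zfp382, was open throughout, and Zfp566 was its strongest member at 8.04 and 6.25. The cluster of 10 genes on chromosome 7, from Zfp180 to Zfp94, was also open throughout, with Zfp180 highest at 6.57 and 6.06. On chromosome 17 a cluster of 9 genes around Zfp53 was open but weak, with Zfp53 highest at 2.55 and 1.92, and one of 8 genes was led by Zfp563 at 6.003 and 4.798. The cluster of 8 genes on chromosome 7 led by Zfp607b, at 5.25 and 5.92, held 2 closed genes, Zfp626 and Zfp607a.

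**Figure D3:**
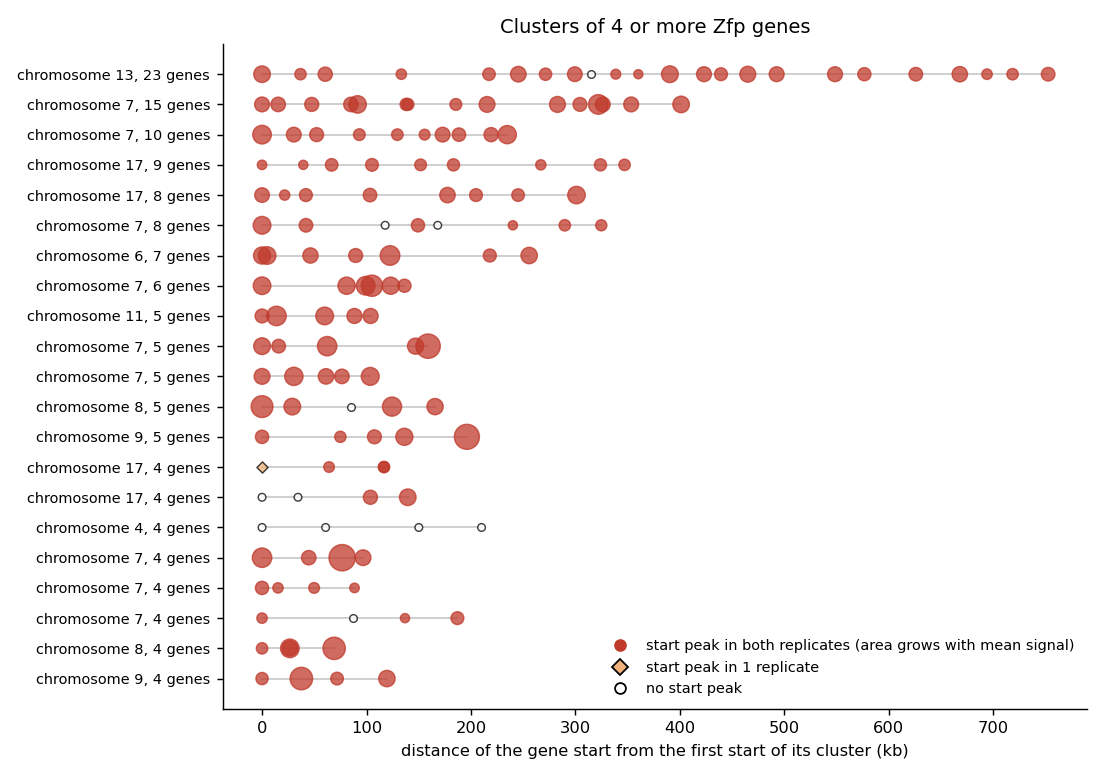
Gene starts of the 21 clusters of 4 or more Zfp genes, as distance (kb) from the first start of the cluster, with 1 line a cluster. Filled circles had a start peak in both replicates, with an area that grows with the mean signal, diamonds in 1 replicate, and open circles in none. The 23, 15, 10, 9 and 8 genes of the top 5 lines are filled but for 1, and all 4 genes of the chromosome 4 cluster are open circles.

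The largest cluster, on chromosome 13 (chr13:67061170-67813740, GRCm38), holds 23 genes from Zfp712 to Zfp273, of which 22 had a start peak in both replicates. Zfp874a was highest with 5.40 and 4.34, and Zfp712 had 5.05 and 4.39. Zfp456 had no stricter peak, and its neighbours Zfp429 and Zfp459 were the weakest of the open genes, with 0.78 and 0.93 at Zfp429 and 0.57 and 0.48 at Zfp459. The 3 lowest starts thus stood side by side, and other low ones, such as Zfp455 with 1.09 and 1.07 and Zfp85 with 1.08 and 1.14, stood elsewhere in the row. All 23 starts have a CpG ratio under 0.6, as Zfp874a with 0.39 and Zfp738 with 0.30. A word known as the cAMP response element or CRE, TGACGTCA, which is its own reverse complement and is bound by factors of the CREB and ATF families, recurred along it. The window of 250 bases before to 50 after the start held this word in 10 of 216 clustered genes (4.63%), 5 of 175 lone genes (2.86%) and 2.43% of all coding genes. Among coding genes open in both replicates the share was 3.57%. Of the 10 clustered genes with the word, 8 stood in this single cluster. A footprint that held it, allowing 3 bases on either side, lay within 1 kb of a start in both replicates at 9 of the 23 genes. Outside this cluster 5 clustered genes had one in both. In replicates 1 and 2 the word lay in 0.89% and 0.91% of all footprints near clustered starts. The shares were 0.56% and 0.71% near lone starts and 0.38% and 0.43% near all coding starts. The word was singled out for this cluster after its counts were seen. Such footprints inside the start windows follow, 5′ to 3′ on the gene's strand in GRCm38, with the word in capitals.
Zfp457, chr13:67306456-67306490, strand -: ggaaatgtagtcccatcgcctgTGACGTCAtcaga
Zfp595, chr13:67332579-67332615, strand -: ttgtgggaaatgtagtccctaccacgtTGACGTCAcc
Zfp953, chr13:67360611-67360652, strand -: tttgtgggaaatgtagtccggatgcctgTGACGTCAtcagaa
Zfp874a, chr13:67451621-67451660, strand -: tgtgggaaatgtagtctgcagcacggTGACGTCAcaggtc
Zfp874b, chr13:67484252-67484276, strand -: ctgtagcacggTGACGTCAcagatc
Zfp87, chr13:67526184-67526208, strand -: tgccctctgTGACGTCAcaagcagc
Zfp493, chr13:67779692-67779712, strand +: cataTGACGTCAcaaggagcc

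The footprints of Zfp457, Zfp595, Zfp874a and Zfp953 also share the run ggaaatgtagtc of 12 bases before the word. The footprints were centred between 27 bases before and 12 bases after the gene start. The 9 genes with such a footprint in both replicates had start signals of 1.05 to 5.40 in replicate 1 (median 3.84) and 1.93 to 4.34 in replicate 2 (median 3.37). The other 14 ranged from 0 to 5.05 (median 1.90) and from 0 to 4.39 (median 2.46), so the groups overlap widely. A match of letters is not a measured binding site.

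**Figure D4:**
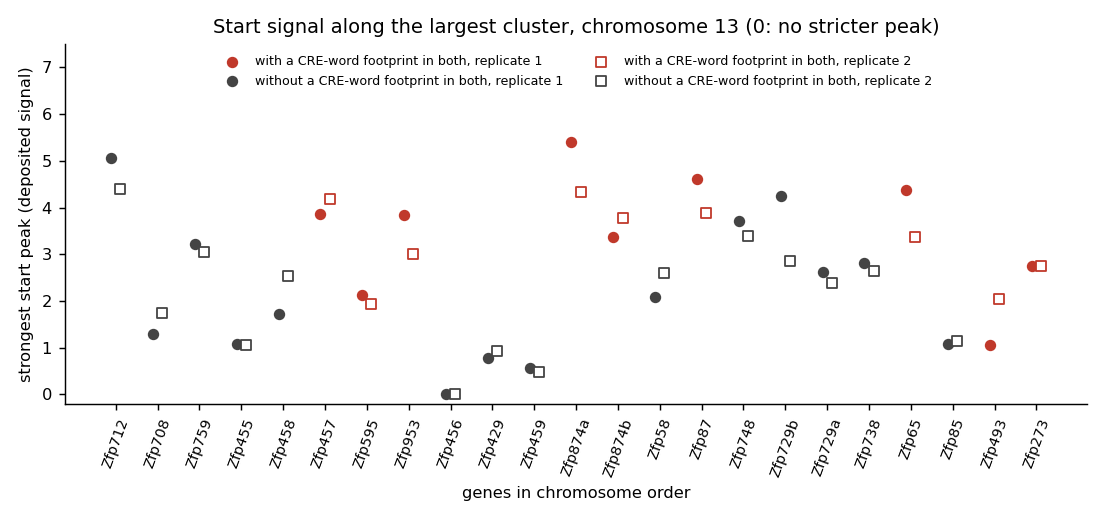
Deposited signal of the strongest start peak for the 23 genes of the chromosome 13 cluster in chromosome order, filled circles for replicate 1 and open squares for replicate 2. Red marks genes with a footprint holding the CRE word in both replicates, and 0 means no peak in the stricter list. Zfp456, Zfp429 and Zfp459 form a dip in the middle, and both colours span high and low values.

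The 27 clustered genes without a start peak stood mostly in a few places. Chromosomes 2 and 4 held 16 of them among 23 clustered genes, and on the other chromosomes 180 of 193 clustered genes were open in both replicates. On chromosome 4, 11 of 12 clustered genes had no start peak in either replicate, namely Zfp987, Zfp600, Zfp992, Zfp981, Zfp988, Zfp978, Zfp982, Zfp985, Zfp979, Zfp534 and Zfp984, and the exception was Zfp933 with 2.03 and 3.10. On chromosome 2 the closed genes were Zfp345, Zfp663, Zfp968, Zfp965 and Zfp972. Of all 27 closed genes 21 had no base with a false discovery rate of the cut rate under 0.05 within 1 kb of a start in either replicate. The other 6 had some: Zfp456, Zfp663, Zfp575, Zfp607a, Zfp977 and Zfp92. Just below the stricter list, Zfp456 had a peak of 0.35 and 0.27 in the longer list and Zfp663 one of 0.75 and 0.47. Of the 2 genes open in a single replicate, Zfp819 had 0.51 in replicate 1 and no peak of either list in replicate 2, and Zfp820 had 0.15 in replicate 2 with a longer-list peak of 0.18 in replicate 1.

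The closed starts were CpG-poor and repeated. Their median CpG ratio was 0.27, against 0.60 in the 187 clustered genes open in both replicates. A median of 36.8% of the 32-base words within 1 kb of their gene start occurs once in the genome, against 95.9% in the open ones. At Zfp968 and Zfp965 the share was 0%, at Zfp97 it was 0.20%, and at Zfp955a and Zfp955b, whose start windows are identical, it was 4.47% and 4.87%. Reads from such words have no single place, and how the authors treated them is not stated, so at these starts no peak cannot be told apart from no countable read. Of 28 clustered genes with under 50% such words 13 (46.4%, 29.5 to 64.2) were open in both replicates, of 51 with 50 to 90% it was 42 (82.4%), and of 137 with 90% or more it was 132 (96.4%, 91.7 to 98.4). For lone genes with 90% or more the count was 128 of 146 (87.7%, 81.4 to 92.1), and for all coding genes the share was 63.2%. In that last class 4 clustered genes were closed in both replicates: Zfp663, Zfp853, Zfp575 and Zfp92.

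**Figure D5:**
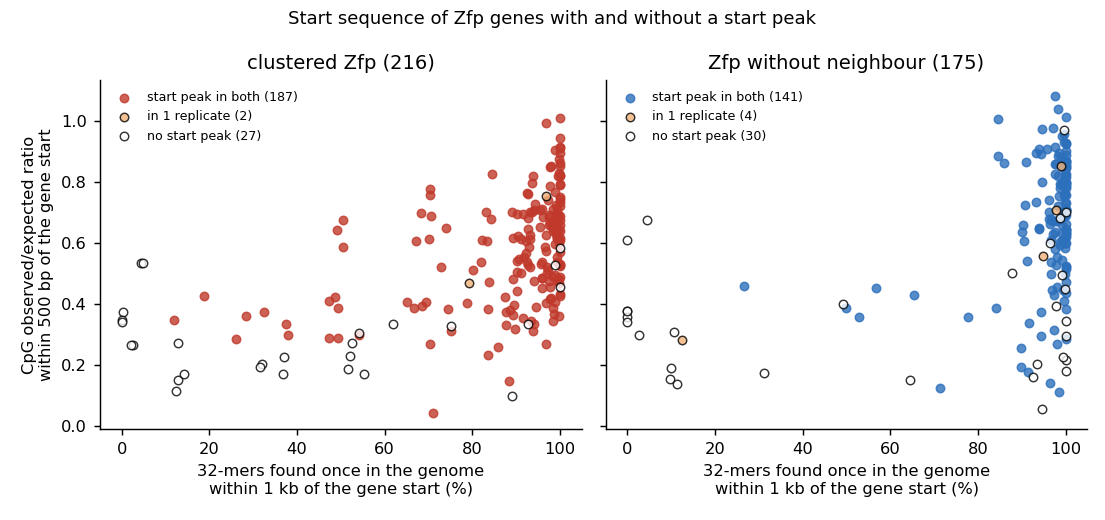
CpG ratio within 500 bp of the gene start against the share (%) of 32-base words within 1 kb that occur once in the genome, clustered genes left and lone genes right, 1 point a gene. Colour-filled points had a start peak in both replicates, orange ones in a single replicate and white ones in neither. White points of the clustered genes lie mostly low and to the left, and 93 of the 94 genes with a ratio of 0.6 or more had a start peak in both.

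Next neighbours within clusters were compared in state and sequence, where 86.6% of all clustered genes were open in both replicates and 12.5% in neither. Of 162 pairs of next neighbours within clusters 133 were open in both replicates at both genes, 8 were closed at both, and in 19 one gene was open and the other closed. Their starts lay a median of 33.8 kb apart, 107 pairs had the same strand, and the median identity was 56.1% between the proteins and 58.3% between the 300-base start windows. Some of the 133 open pairs had equal signals at both genes, so a single peak may count at each. Examples are Zfp935 and Zfp934 (1.72 and 1.43) and Zfp942 and Zfp943 (1.63 and 1.28). Zfp944 and Zfp758 (0.98 and 0.73) are another. Over 80% of window bases were shared in 14 pairs, among them Zfp882 and Zfp617 (91%). Their starts were the closest, 0.027 kb apart on the same strand. Both their 300-base windows and their windows of 1 kb overlap, so this pair does not compare separate copies. The strongest peak over all annotated starts had 3.91 and 3.73 at Zfp882 and 6.87 and 5.74 at Zfp617. A peak near their neighbouring gene starts cannot be given to one of them. In 3 pairs with windows over 80% alike a closed gene stood beside an open one: Zfp456 and Zfp429 (91.3%), Zfp977 and Zfp976 (90%) and Zfp97 and Zfp960 (85.3%). Zfp429 was open weakly, at 0.78 and 0.93, and so was Zfp976, at 0.75 and 0.37, while Zfp960 had 1.46 and 1.71. Of their 32-base words 62.03% were single in the genome at Zfp456 and 74.4% at Zfp429, 54.2% at Zfp977 and 47.4% at Zfp976, and 0.20% at Zfp97 and 49.4% at Zfp960. The start windows of the first 2 pairs are shown to let the copies be compared, in GRCm38, 5′ to 3′ on the gene's strand, with capitals for bases that have no equal in the aligned partner.
Zfp456, chr13:67375761-67376060, strand -: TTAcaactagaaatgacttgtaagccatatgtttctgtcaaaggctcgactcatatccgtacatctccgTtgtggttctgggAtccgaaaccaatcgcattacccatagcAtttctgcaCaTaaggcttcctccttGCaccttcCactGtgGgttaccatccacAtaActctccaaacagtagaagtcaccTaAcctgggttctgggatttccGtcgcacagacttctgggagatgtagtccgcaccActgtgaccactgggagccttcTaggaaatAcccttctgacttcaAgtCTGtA
Zfp429, chr13:67399770-67400069, strand -: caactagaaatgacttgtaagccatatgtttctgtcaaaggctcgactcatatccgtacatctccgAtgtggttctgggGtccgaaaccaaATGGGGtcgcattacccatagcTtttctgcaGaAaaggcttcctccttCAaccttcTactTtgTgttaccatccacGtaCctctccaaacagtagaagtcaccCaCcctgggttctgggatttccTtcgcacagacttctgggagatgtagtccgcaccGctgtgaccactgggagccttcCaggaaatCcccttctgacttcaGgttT
Zfp977, chr7:42592498-42592797, strand -: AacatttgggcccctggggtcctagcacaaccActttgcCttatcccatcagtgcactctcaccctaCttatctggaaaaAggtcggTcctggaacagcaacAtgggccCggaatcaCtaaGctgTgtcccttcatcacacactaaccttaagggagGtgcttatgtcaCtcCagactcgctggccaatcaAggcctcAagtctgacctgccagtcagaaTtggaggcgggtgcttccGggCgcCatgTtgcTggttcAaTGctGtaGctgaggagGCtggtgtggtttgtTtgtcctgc
Zfp976, chr7:42642539-42642838, strand -: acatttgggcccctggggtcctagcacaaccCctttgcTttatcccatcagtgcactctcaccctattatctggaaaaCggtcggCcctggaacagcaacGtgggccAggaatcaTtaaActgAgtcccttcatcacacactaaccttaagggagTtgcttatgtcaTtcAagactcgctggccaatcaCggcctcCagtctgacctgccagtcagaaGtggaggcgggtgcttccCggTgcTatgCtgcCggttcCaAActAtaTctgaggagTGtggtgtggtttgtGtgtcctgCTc

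Between Zfp456 and Zfp429, 20 aligned bases differ and 12 stand opposite a gap. Between Zfp977 and Zfp976 the counts are 28 and 4. The closed copies thus differ from the open ones at few places, and the difference in signal between the copies is one between none in the stricter list and a weak peak.

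The clustered genes were also split by the KRAB pattern, which misses some genes known to carry a KRAB box, such as Zfp708, so that the genes without a match hold some of them. With the pattern 133 of 159 (83.6%, 77.1 to 88.6) had a start peak in both replicates, and without it 54 of 57 (94.7%, 85.6 to 98.2), so the intervals overlap. Lone genes gave 37 of 52 (71.2%, 57.7 to 81.7) with it and 104 of 123 (84.6%, 77.1 to 89.9) without it, and over all coding genes the share was 55.9%. The median mean start signal over genes open in both was 2.77 with the pattern and 4.03 without it among clustered genes, against 3.41 and 4.39 among lone genes. Clustered genes with the pattern had a median CpG ratio of 0.52 and a median of 92.4% single 32-base words, and those without it had 0.68 and 98.8%. The part of the start sequence in this difference was not tested.

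Genes of a list of silencing proteins, among them the KRAB partners Trim28 and Setdb1, were counted too. Of the 26 genes listed, 26 had a start peak in both replicates, where 55.9% of all coding genes had one. Mphosph8, a subunit of the HUSH silencing complex, had the highest start signal with 16.3 and 11.4, and Morc3, an ATPase of heterochromatin, had 15.6 and 10.9. Cbx3, a heterochromatin protein of the HP1 family, had 12.5 and 8.39. Trim28 had 7.58 and 4.25 with 54 and 27 footprints, and Setdb1 had 5.98 and 4.15 with 6 and 8 footprints. Most of these are genes that many cell types use.

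Other words were counted in the same windows. The NRF1 word GCGCATGC lay in the 300-base window of 16 clustered genes (7.41%), 5 lone genes (2.86%) and 3.71% of all coding genes, and in footprints at 16 clustered genes in each replicate. It lay in 1.08% and 1.11% of footprints near clustered starts in replicates 1 and 2. The shares were 0.56% and 0.65% near lone starts and 0.56% and 0.60% near all coding starts. The SP word GGGCGG lay in 71 clustered windows (32.9%), 90 lone ones (51.4%) and 43.0% of all. The ETS word CCGGAAGT lay in 20 (9.26%), 15 (8.57%) and 4.69%. All 20 clustered genes with it were open in both replicates, where 86.6% of all clustered genes were. TATAAA lay in 15 (6.94%), 12 (6.86%) and 12.6%. Of the clustered genes with an NRF1 word 13 were open in both replicates and 2 in neither, and of those with the NFY word CCAAT, 104 in all, 80 were open in both and 22 in neither. Over all clustered genes the shares were 86.6% in both and 12.5% in neither. Whether any word goes with openness was not tested. Words were matched without mismatch on both strands. The E-box word CAGATG lay in 31 clustered windows (14.4%), 28 lone ones (16%) and 15.2% of all, and the CTCF core AGGTGGC in 9 (4.17%), 5 (2.86%) and 6.34%. Among coding genes open in both replicates the shares were 5.37% for NRF1, 60.8% for SP, 7.75% for ETS and 6.91% for TATAAA. They were 12.2% for CAGATG and 6.83% for the CTCF core. The clustered shares are over all 216 genes, of which 187 were open in both. Beside open coding genes, TATAAA was thus not rarer at clustered starts.

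Distal peaks were also counted per gene. A clustered gene had a mean of 1.5 distal peaks within 50 kb in replicate 1 and 1.74 in replicate 2, against 2.01 and 2.19 for a lone gene and 2.49 and 2.63 for a coding gene. The difference between clustered and lone genes was -0.48 ± 0.04 (SD, n = 2). The medians were 0 and 1 for clustered genes and 1 and 1 for lone genes. Because windows of neighbours overlap, the ground within 50 kb of any start was also counted once. It came to 11.5 Mb around clustered genes with 197 and 223 distal peaks, 17.1 and 19.3 per Mb. Around lone genes it was 17.5 Mb with 352 and 383, 20.1 and 21.9 per Mb, and over the genome there were 12.97 and 16.16 per Mb. Repeat-masked bases made up 39.1% of the ground around clustered genes, 33.6% around lone genes and 35.4% of the genome, and their part in the difference was not tested. Distal peaks leave out the ground near starts. Other coding starts within 50 kb numbered a mean of 2.64 for clustered, 1.63 for lone and 2.21 for all coding genes. The part of this was not tested. Peaks of all kinds came to 55.3 and 59.4 per Mb around clustered genes and 56.5 and 57.3 around lone genes. With all peaks within 50 kb counted, promoter peaks of neighbours included, the difference per gene turned to 0.52 more for clustered genes. Among genes with a KRAB pattern alone, a split chosen after seeing the data, it was 0.11 more for clustered genes, and with a CpG ratio of 0.6 or more it was -0.15 ± 0.36 (SD, n = 2).

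The highest distal counts were alike in both libraries at some genes and far apart at others. Zfp119b had 26 distal peaks in replicate 1 and 8 in replicate 2, within 17.8 kb of its start, and 6 and 7 of them overlapped a peak of the other replicate. Zfp553 had 6 and 25 and its neighbour Zfp771 had 3 and 25, with a median signal of 0.46 in replicate 2 at both, and 2 of the 25 overlapped a peak of replicate 1 at each. Zfp213 had 11 and 16, of which 9 and 8 overlapped a peak of the other replicate. Zfp931 had 14 and 14, with 11 and 11 overlapping, at 19.7 to 49.7 kb from its start. At Zfp866 replicate 1 had 15 peaks of 0.12 to 0.33 within 14 kb and replicate 2 had none. Most peaks near Zfp931 were thus found in both libraries, and most of those near Zfp553, Zfp771 and Zfp866 in a single one.

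Within the genes, peaks over the longest coding exon, which in most C2H2 genes encodes the fingers, were counted. Such a peak was found at 9 of 216 clustered genes (4.17%, 2.21 to 7.73) in replicate 1 and 7 (3.24%, 1.58 to 6.54) in replicate 2. Lone genes gave 16 of 175 (9.14%, 5.71 to 14.3) and 15 (8.57%, 5.26 to 13.7), and all coding genes 10.2% and 9.27%. Counting distal peaks alone, such exons numbered 8 and 7 at clustered genes and 9 and 7 at lone genes. Peaks close to a transcript start thus made up much of the lone count and little of the clustered one. Footprints lay in the exon at 18 (8.33%) and 13 (6.02%) clustered genes, 30 (17.1%) and 18 (10.3%) lone genes, and 13.6% and 11% of all coding genes. The exon had a median length of 1420 bp in clustered, 1384 bp in lone and 334 bp in all coding genes. How much of the exon sequence occurs once in the genome was not measured. There, too, no peak cannot be told apart from no countable read.

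The stricter lists held 61776 peaks of replicate 1 and 71141 of replicate 2, and 314116 and 320832 footprints. Read counts were not used here. The signal moved in whole steps, 196 and 152 of them at the middle peak, and if a step is 1 cut this gives counting errors of 7.14% and 8.11%. All 8 granule cell markers had a start peak in both replicates, as had 2 of 4 Purkinje cell and 1 of 4 oligodendrocyte markers, beside 55.9% of all coding genes. None of 4 microglial, 3 vessel and 3 other-organ markers had one in either.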

How the data were processed

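For each library the authors deposited 2 lists of peaks with a signal value per peak, a coverage measure, a table of q-values (the false discovery rate of the local cut rate, intervals under 0.05) and a list of footprints that all carry the q-value 0.01. Each was made from 1 library on mm10, without pooling, per the labels and the deposited description of the files. For the aligner, the callers, their versions and the scale of the signal nothing is given in the sources used here. Every peak signal under 100 steps lay within 0.05 of a whole step (100% of values), and steps were 0.00714 and 0.00632 in replicates 1 and 2.

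Positions were compared with GENCODE mouse release 21 and the RefSeq GRCm38 sequence in Python 3.11.15 with numpy 2.4.6, pandas 2.3.3, scipy 1.17.1 and Biopython 1.88. A peak counted with an overlap of 1 bp, and a gene took its strongest start peak. Proteins were translated from GENCODE coding exons, because the protein table named in the plan was not used here. The KRAB pattern was sought in the first 250 residues and widened after seeing that it missed known members, of which it still misses some. Words of 32 bases were counted over 21 chromosomes, and their length is not the length of the reads, which is not known. Identity of neighbours came from global alignments. The CAST genome of the hybrid was not used. With 1 group there is no test. Shares carry 95% Wilson intervals for counting error alone, and means the SD over 2 replicates. The counting functions were tested on simulated data.

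The members and lists were chosen with earlier results of these data known. Genes named were the 10 members with the highest mean start signal, the 5 with most footprints and the 5 with most distal peaks. Also named were those called in 1 replicate and the strongest and the first closed member of the 6 largest clusters. The 5 strongest lone genes and the clustered genes of the published-role list were named too. Of the lone genes on that list Zfp57 alone was named. All 27 closed members, the genes of the chromosome 13 cluster, the pairs with like start windows, Zfp866 and the silencing genes with a start signal given were named after their values were seen, as were genes that mark a cluster or share a start or a peak.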

Additional observations from a re-analysis of the deposited data

How the results depend on the processing

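The count of 187 clustered genes open in both replicates stayed within 1.5 times under all 8 alternatives run. The clustered minus lone share with a start peak (5.32 points) turned to -0.44 with neighbours within 200 kb. It was 4.21 with the longer list, 6.47 and 4.41 with windows of 500 bp and 2 kb, 2.17 ± 3.02 with the stronger part of each list, 16.2 with neighbours within 50 kb, 9.75 in clusters of 3 genes or more, 8.02 at starts mostly found once, 2.998 with 3 or more fingers and 6.99 with no other coding start within 1 kb. The distal difference (-0.48) turned to 0.52 with every peak counted. It was -1.02 with the longer list, -0.27 and -0.94 within 25 kb and 100 kb, -0.37 and -0.43 with neighbours within 50 kb and 200 kb, -0.73 in clusters of 3 genes or more, -0.37 at starts mostly found once, -0.36 with no other coding start within 1 kb, and -0.15 with a CpG ratio of 0.6 or more. The footprint difference (-3.04) was -1.57 with the gene record start alone, -1.57 inside stricter peaks and -1.05 with neighbours within 50 kb. The cause was not tested. Alternatives chosen after seeing the data gave a distal difference of -0.42 without chromosomes 2 and 4. Among KRAB genes alone they gave 12.2 points, 0.11 distal peaks and 0.63 footprints, the last 2 reversed. Each replicate alone gave the direction reported. No paired analysis was possible because the 2 libraries form 1 group and no result came from a test. Depth limits weak peaks: a start with no stricter peak may be open below it.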
